A study of Mus musculus with 48 samples.

Results

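The step from an aorta without a lesion to a dissected or dilated one was examined in male mice given β-aminopropionitrile (BAPN), by comparing 7 libraries of mice with a lesion (MaAAD) with 4 libraries of mice without one (MaNonAD), 11 of the 48 libraries of the series, which were chosen by their group labels. All 11 mice were wild-type C57BL/6J males whose drinking water held 0.4% BAPN for 28 days from 3 weeks of age, and the RNA came from the thoracic aorta, 1 library per mouse. The 10 male controls (MaCon), of the same strain and age, drank normal water, and the 8 FeNonAD and 9 FeAAD libraries came from females treated and sorted in the same way. AAD covers dissection and aneurysm, which the labels do not separate. The labels and the study's methods differ on whether lesions were judged by eye or under the microscope. Mice were sorted by outcome at the end of treatment, so the groups were not assigned at random, and mice that died of rupture were not sequenced. According to the study's methods RNA was taken from lesioned segments, so a lesion and the piece of aorta sampled cannot be told apart here.

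BAPN blocks lysyl oxidase, the enzyme that cross-links elastin and collagen, and a wall that is built without these cross-links in a growing mouse can tear or widen. In a torn wall, monocytes and neutrophils are drawn in by chemokines such as Ccl2 and by CXC chemokines that bind Cxcr2, and monocytes in the tissue become macrophages that clear blood and debris, release proteases and signal to smooth muscle cells and fibroblasts. Medial smooth muscle cells, which normally express contractile proteins, can lose them, divide or make matrix.

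Library totals ran from 15143925 to 17281268 counts, so depth differed little between the groups. Levels are given as CPM, counts scaled to library size with TMM factors, and Acta2, the actin of smooth muscle, stood at 6432 to 20420 CPM in the 11 libraries. Pairwise correlations of log2 levels among the 11 libraries were at least 0.91. Of the 11, 2 libraries stood apart through genes of other tissues. MaAAD1 held 14500 CPM over 18 genes of brown and white fat, against 1730 to 3690 CPM in the other 6 MaAAD libraries and 4510 to 11000 CPM in MaNonAD. MaAAD7 held 537 CPM over 20 genes of heart and skeletal muscle, against 50.5 to 134 CPM in the other 10, and Myh6, a myosin of heart muscle, was at 142 CPM in it and at most 11.6 CPM elsewhere. Where leaving out 1 library moved the fitted fold of a called gene named here by over 1.5 times, the value without it is given, for Cxcl3 and Il6 as a bound without their highest library. In bulk tissue, more cells of a type and more RNA per cell cannot be told apart, and this holds for every group of genes below.

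In the aortas with a lesion, 51 of 14431 tested genes were called higher than in MaNonAD (0.353%) and 0 were called lower (0.0%), where a call is an edgeR adjusted p under 0.05 with a log2 fold change of at least 1 in size. They were led by Cxcl3, Il6, Slfn4, Ccl2 and others, and 33 of the 51 were in none of the 46 gene lists used below. Log2 fold changes of the 51 began at 1.01 and had a median of 2.17, also with Cxcl3 and Il6 taken at their lower bounds, against a median of 0.003 over all tested genes. Every one of the 51 had the same Benjamini-Hochberg adjusted p of 0.0497 from edgeR, which lay just inside the threshold. Before adjustment, 1777 genes were higher (12.3%) and 918 lower (6.36%) at p under 0.05. MaAAD and MaNonAD did not overlap for 40 of the 51, while over all tested genes 429 were higher without overlap (2.97%) and 154 lower (1.07%).

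Whether these genes were called depended on the libraries and the tool, whereas their direction was the same in all 19 alternatives tried, which is no sign of stability because the genes were chosen for it. DESeq2 called 518 genes, 507 of them higher (3.46% of the 14660 to which it gave an adjusted p) and 11 lower, and included all 51. edgeR called 0 genes without its filter on low counts, with 2952 genes at p under 0.05, and 0 in a fit of the 11 libraries alone, with 2441. It called 494 genes in a fit of the 21 male libraries. Leaving out MaNonAD2, MaNonAD3, MaNonAD4, MaAAD3, MaAAD5, MaAAD6 or MaAAD7 left 0 calls, and leaving out MaNonAD1, MaAAD1, MaAAD2 or MaAAD4 gave 355, 712, 378 and 329. Without MaAAD7 the median log2 fold change of the 51 was 1.75, and 1918 genes had p under 0.05.

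**Figure D1:**
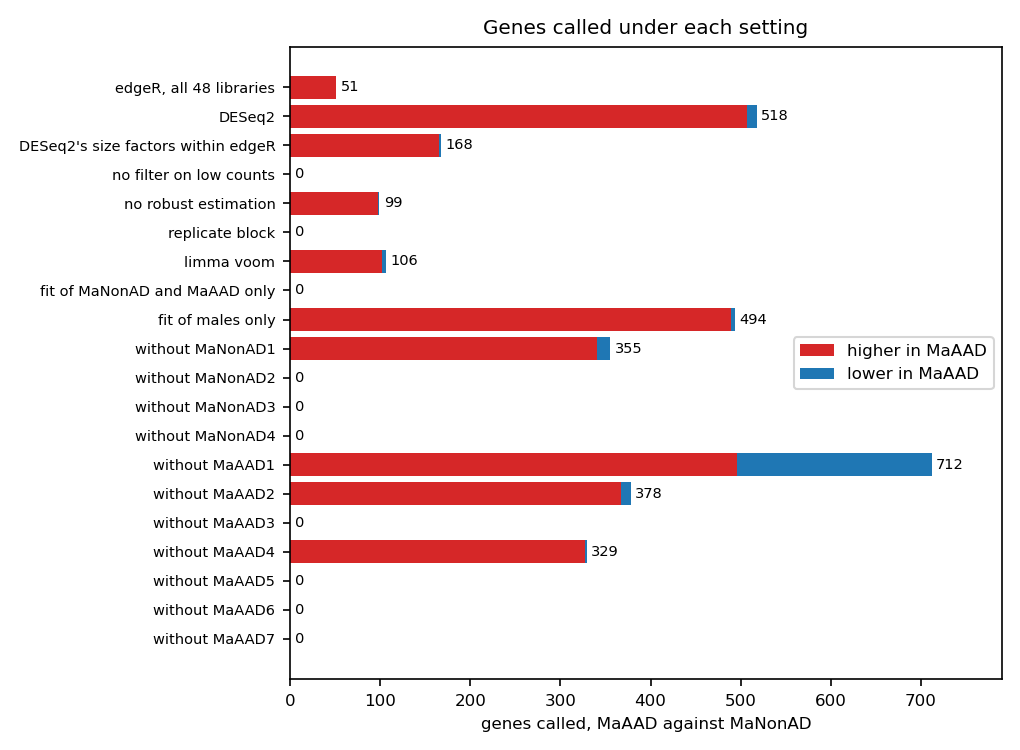
Bars give the number of genes called between MaAAD and MaNonAD in edgeR with all 48 libraries and under each alternative, in red for genes higher in MaAAD and in blue for genes lower. The count is 51 with all libraries, 518 with DESeq2, 712 without MaAAD1 and 0 in 10 of the 19 alternatives.

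Chemokines and cytokines were among the called genes with the largest folds. Cxcl3, which attracts neutrophils through Cxcr2, had 0 counts in all 4 MaNonAD libraries. In MaAAD it had 0.31, 1.80 and 19.7 CPM as lowest, median and highest level. It was therefore counted in every male aorta with a lesion and in no treated male aorta without one, at least 26.6-fold higher against a floor of 3 counts. MaAAD7 held 55.0% of the MaAAD sum, and without it the bound was 14.0-fold. Il6, the interleukin that drives the acute-phase response, was at 0, 0, 0.20 and 0.13 CPM in MaNonAD. In MaAAD its lowest, median and highest levels were 0.74, 1.51 and 14.5 CPM, at least 24.1-fold higher against the same floor, and at least 15.5-fold without MaAAD7. The groups did not overlap, and MaAAD7, MaAAD2 and MaAAD1 were the highest for Il6, at 14.5, 8.62 and 4.52 CPM.

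Ccl2, the main attractant of monocytes, was at 2.46, 0.83, 1.91 and 1.60 CPM in MaNonAD. In MaAAD it was at 5.84, 24.4 and 85.8 CPM (lowest, median, highest), a log2 fold change of 4.13 (SE 1.02). All 7 aortas with a lesion lay above all 4 without. Lcn2, lipocalin-2, an iron-carrier-binding protein of neutrophils and inflamed tissue, was at 1.80, 1.72, 2.5 and 1.20 CPM in MaNonAD and at 5.04, 21.1 and 65.7 CPM in MaAAD, a log2 fold change of 3.84 (SE 0.92). Slfn4, a gene of the Schlafen family expressed in myeloid cells, had a log2 fold change of 4.83 (SE 1.13), but 72.5% of its MaAAD sum came from MaAAD7. Its reads are in part shared with other genes in the authors' counts, and without MaAAD7 its log2 fold change was 3.19.

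The promoters of 4 called genes are shown, chosen because each holds a match to a motif of a transcription factor that acts in inflammation. Promoters were taken from RefSeq on GRCm38.p6, as the 250 bases before the gene's start on its own strand, and 41 of the 51 genes had one. The motifs, searched on both strands, were those of NF-κB, AP-1 (TGANTCA), C/EBP (TTGCNNAA) and the CArG box, and the hypoxia response core ACGTG. Capitals mark the matches of NF-κB, AP-1 and C/EBP in the first 4 called genes, by fold, that had one.
Cxcl3, chr5:90785851-90786100, plus strand: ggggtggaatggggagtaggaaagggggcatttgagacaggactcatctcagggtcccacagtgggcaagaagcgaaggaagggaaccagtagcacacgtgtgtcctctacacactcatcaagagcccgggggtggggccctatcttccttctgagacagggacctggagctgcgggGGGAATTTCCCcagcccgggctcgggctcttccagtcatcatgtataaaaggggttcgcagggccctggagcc
Il6, chr5:30012864-30013113, plus strand: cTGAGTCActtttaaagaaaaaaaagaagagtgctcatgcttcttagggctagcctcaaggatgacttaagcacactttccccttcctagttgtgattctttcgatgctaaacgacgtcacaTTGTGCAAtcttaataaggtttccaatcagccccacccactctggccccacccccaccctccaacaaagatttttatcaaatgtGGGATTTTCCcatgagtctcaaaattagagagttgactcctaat
Slfn4, chr11:83174936-83175185, plus strand: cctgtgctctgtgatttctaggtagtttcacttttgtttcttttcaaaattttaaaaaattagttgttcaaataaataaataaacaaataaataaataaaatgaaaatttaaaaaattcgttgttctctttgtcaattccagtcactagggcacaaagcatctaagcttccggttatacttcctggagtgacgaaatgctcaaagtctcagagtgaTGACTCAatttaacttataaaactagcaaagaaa
Lcn2, chr2:32387740-32387989, minus strand: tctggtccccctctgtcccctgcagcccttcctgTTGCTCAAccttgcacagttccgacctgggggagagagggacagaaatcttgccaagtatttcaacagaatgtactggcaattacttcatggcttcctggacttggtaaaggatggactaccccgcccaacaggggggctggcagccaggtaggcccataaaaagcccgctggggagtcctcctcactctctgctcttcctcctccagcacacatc

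In Cxcl3 the capitals are a pair of overlapping NF-κB matches that begin 73 and 72 bases before the start. In Il6 they are, from left to right, an AP-1 match 249 bases, a C/EBP match 128 bases and an NF-κB match 44 bases before the start. Slfn4 has an AP-1 match 34 bases before the start and Lcn2 a C/EBP match at 216 bases. Over the 41 promoters, AP-1 matches were found in 8 (19.5%), among them those of Itgax, Cd80 and Tpbg, against 4.54% of the 11396 promoters of tested genes. C/EBP matches were found in 7 (17.1% against 7.68%) and NF-κB matches in 5 (12.2% against 8.82%). The hypoxia core was found in 17.1% against 21.2%, and the CArG box, which serum response factor binds in smooth muscle genes, in 0 of the 41 against 1.21%. A match is a run of letters, and binding was not measured.

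Enzymes and carriers of metabolism formed another group. Hmox1, heme oxygenase-1, which breaks down heme, was at 25.4, 24.0, 30.8 and 17.8 CPM in MaNonAD and at 28.5, 224 and 859 CPM in MaAAD, a log2 fold change of 3.62 (SE 0.89). Here MaAAD4, the lowest, lay within the MaNonAD range and MaAAD5 was the highest.

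Slc7a11, the cystine carrier that feeds glutathione synthesis, was at 0.78, 0.25, 0.53 and 0.60 CPM in MaNonAD and at 0.92, 2.98 and 23.1 CPM in MaAAD, with 59.4% of the MaAAD sum in MaAAD5. The groups lay side by side without overlap, and without MaAAD5 the log2 fold change of 3.34 became 2.27. Psat1, an enzyme of serine synthesis, had a log2 fold change of 1.24 (SE 0.30), and Ch25h, which makes 25-hydroxycholesterol in activated macrophages, one of 2.42 (SE 0.60). Slc37a2, a sugar-phosphate carrier of macrophages, had one of 1.62 (SE 0.39). For Psat1 and Slc37a2 the groups overlapped.

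Another group, put together after the genes were known, holds surface receptors and cytoplasmic proteins known from myeloid cells. Itgam, the integrin CD11b of monocytes, macrophages and neutrophils, was at 23.8, 10.3, 17.6 and 20.1 CPM in MaNonAD. In MaAAD it was at 27.7, 64.8 and 275 CPM, a log2 fold change of 2.35 (SE 0.58). All 7 MaAAD libraries lay above MaNonAD, MaAAD1 only slightly, and without MaAAD7 the log2 fold change was 1.76. Mrc1, the mannose receptor of tissue macrophages, was at 44.8, 31.1, 52.9 and 53.1 CPM in MaNonAD and at 81.5, 102 and 273 CPM in MaAAD, a log2 fold change of 1.51 (SE 0.36) without overlap. Msr1, a scavenger receptor that takes up modified lipoproteins, was at 5.75, 3.76, 5.52 and 4.54 CPM in MaNonAD and at 10.2, 22.3 and 75.4 CPM in MaAAD, a log2 fold change of 2.67 (SE 0.59), again without overlap.

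Receptors that sense microbes or damage included Clec4n, which encodes dectin-2 and had a log2 fold change of 3.74 (SE 0.89). Tlr13, a Toll-like receptor for bacterial RNA, had one of 2.17 (SE 0.53), and Card9, the adaptor that dectin receptors signal through, one of 2.34 (SE 0.57). Clec4n was highest in MaAAD5 at 87.2 CPM, while Tlr13 and Card9 were highest in MaAAD7. Of the receptors for growth factors, Csf2rb, the shared chain of the receptors for GM-CSF, IL-3 and IL-5, had a log2 fold change of 2.43 (SE 0.60) and its relative Csf2rb2 one of 2.79 (SE 0.69). The reads of these relatives are in part shared, so their split is uncertain.

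Inhibitory receptors were higher as well, with log2 fold changes of 2.76 for Lilrb4a, 2.22 for Fcgr2b and 1.06 for Sirpa. Sirpa is the receptor of the "do not eat me" signal CD47. Lilr4b, a relative of Lilrb4a, had a log2 fold change of 2.68. For Lilrb4a and Lilr4b the groups overlapped. Lilrb4a and Lilr4b share reads with other genes. Fcgr2b had values that were not whole in only 2 of the 48 libraries, and in 0.0% of the 11 compared here. Itgax, which encodes CD11c, had a log2 fold change of 2.24 (SE 0.51), Cd300lb one of 2.37, Cd244a one of 2.69 and Cd80, a costimulatory ligand for T cells, one of 1.85. Inside the cell, Lcp1, an actin bundler of leukocytes, was at 73.5, 21.5, 40.6 and 31.7 CPM in MaNonAD and at 81.5, 140 and 347 CPM in MaAAD, a log2 fold change of 1.94 (SE 0.47). The others of this kind, given as log2 fold changes, were Plek (1.85), Nckap1l (1.61) and Inpp5d (1.38). Nckap1l is a part of the actin-regulating WAVE complex of blood cells, and Inpp5d encodes the phosphatase SHIP1. For Plek and Inpp5d the groups overlapped. Basp1 (1.93) and Plscr1 (1.3) are listed here too, without a claim that they are particular to myeloid cells.

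A smaller group acts on matrix and adhesion. Adam8, a membrane metalloproteinase of leukocytes, was at 10.7, 1.27, 4.01 and 3.94 CPM in MaNonAD and at 7.25, 32.4 and 167 CPM in MaAAD, a log2 fold change of 3.46 (SE 0.80), and the groups overlapped through MaNonAD1 and MaAAD4. It was 2.86 without MaAAD5, which held 43.5% of the MaAAD sum, and 4.16 without MaNonAD1. Mmp19, a secreted metalloproteinase, was at 21.0, 20.4, 18.2 and 14.1 CPM in MaNonAD and at 29.6, 36.9 and 64.6 CPM in MaAAD, a log2 fold change of 1.14 (SE 0.27). Pdpn, podoplanin, carried by activated fibroblasts and lymphatic endothelium, was at 23.5, 13.9, 19.5 and 16.1 CPM in MaNonAD and at 35.6, 56.6 and 97.2 CPM in MaAAD, a log2 fold change of 1.75 (SE 0.41). For Mmp19 and Pdpn all aortas with a lesion lay above all without. Cd44, the hyaluronan receptor, had a log2 fold change of 1.26 (SE 0.30), and MaAAD1 at 51.6 CPM lay within the MaNonAD range.

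The most even rises across the 7 aortas were small ones. The share of the MaAAD sum held by the highest library, 14.3% if all were equal, was 16.9% for Ptger4, a receptor of prostaglandin E2, 17.8% for Plscr1, 19.6% for Casp4, the caspase of the non-canonical inflammasome, and 19.6% for Tpbg. Ptger4 was at 6.05, 6.24, 4.8 and 6.68 CPM in MaNonAD and at 9.16, 12.5 and 14.2 CPM in MaAAD, a log2 fold change of 1.01 (SE 0.22). Casp4 was at 7.96, 5.73, 5.52 and 4.34 CPM in MaNonAD and at 10.4, 12.9 and 19.3 CPM in MaAAD, a log2 fold change of 1.25 (SE 0.26), and was highest in MaAAD1. Neither gene overlapped between the groups. The median share over the 51 genes was 29.5%.

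The remaining called genes, given to complete the list, had log2 fold changes of 3.42 (Clca3a2), 3.39 (Nxpe5), 2.17 (Brinp1), 1.97 (Kcnk13, a potassium channel), 1.79 (Frmd5), 1.67 (Vdr, the vitamin D receptor), 1.27 (Dclk1), 1.25 (Sox4, a transcription factor), 1.20 (Arsj), 1.13 (Il13ra1, a chain of the receptors for IL-4 and IL-13), 1.10 (B4galt5) and 1.05 (Tpbg). Of these, Clca3a2 was highest in MaAAD5 at 12.3 CPM, with 53.3% of its MaAAD sum there, and its log2 fold change was 2.55 without MaAAD5 and 4.01 without MaNonAD1. Clca3a2 shares reads with other genes. The log2 fold change of Nxpe5 was 2.79 without MaAAD7 and 4.14 without MaNonAD3.

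**Figure D2:**
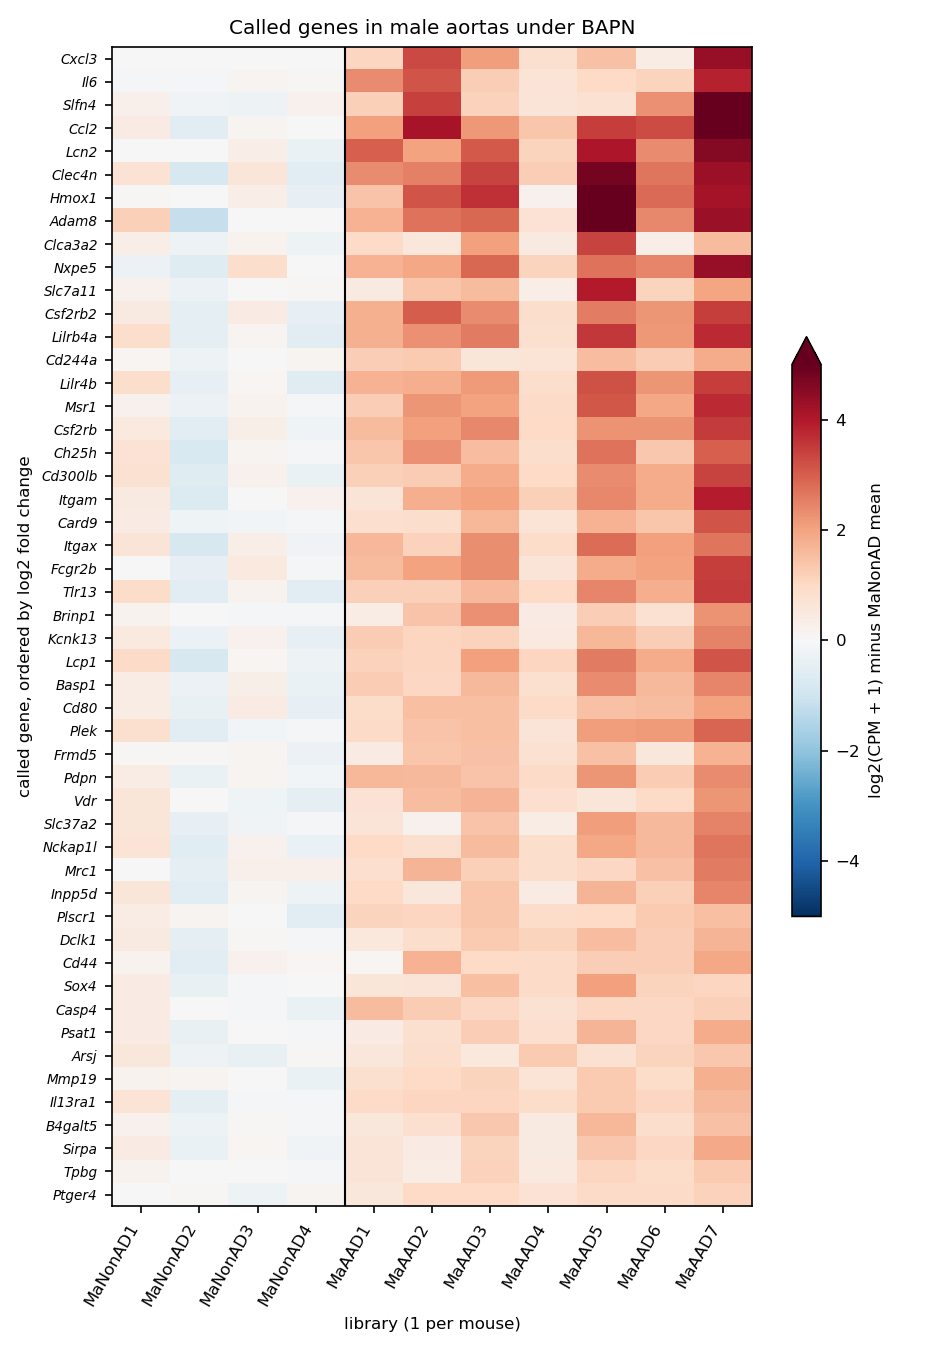
Each row is 1 of 50 called genes and each column 1 library, and colour gives log2(CPM + 1) minus the mean of the 4 MaNonAD libraries. MaAAD7 is the darkest column, highest for 40 of them, and MaAAD4 the palest of MaAAD, lowest for 30.

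The 7 aortas with a lesion were unequal. The mean log2(CPM + 1) over the 51 genes was 2.94, 2.19, 2.66 and 2.38 in MaNonAD1 to MaNonAD4. In MaAAD1 to MaAAD7 it was 3.69, 4.16, 4.35, 3.39, 4.79, 4.12 and 5.43, so that the lowest, MaAAD4, stood nearer to MaNonAD1 than to MaAAD7. MaAAD7 was the highest MaAAD library for 41 of the 51 genes, against 24.3% of all tested genes, and MaAAD5 for 8. Of the treated aortas without a lesion, MaNonAD1 was the highest for 39 genes and MaNonAD2 the lowest for 31. In MaCon the same mean lay from 1.85 to 2.33, so MaNonAD1, MaNonAD3 and MaNonAD4 lay above the range of untreated aortas and MaNonAD2 within it. Gene by gene, MaNonAD overlapped MaCon for 48 of the 51, with a median ratio of the group means of 1.58, and all 7 MaAAD libraries lay above all 10 MaCon libraries for 48. The shares over all tested genes were not computed for these counts, so they are not read as traits of the 51. The choice of the 51 as higher in MaAAD favours the count above MaCon.

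**Figure D3:**
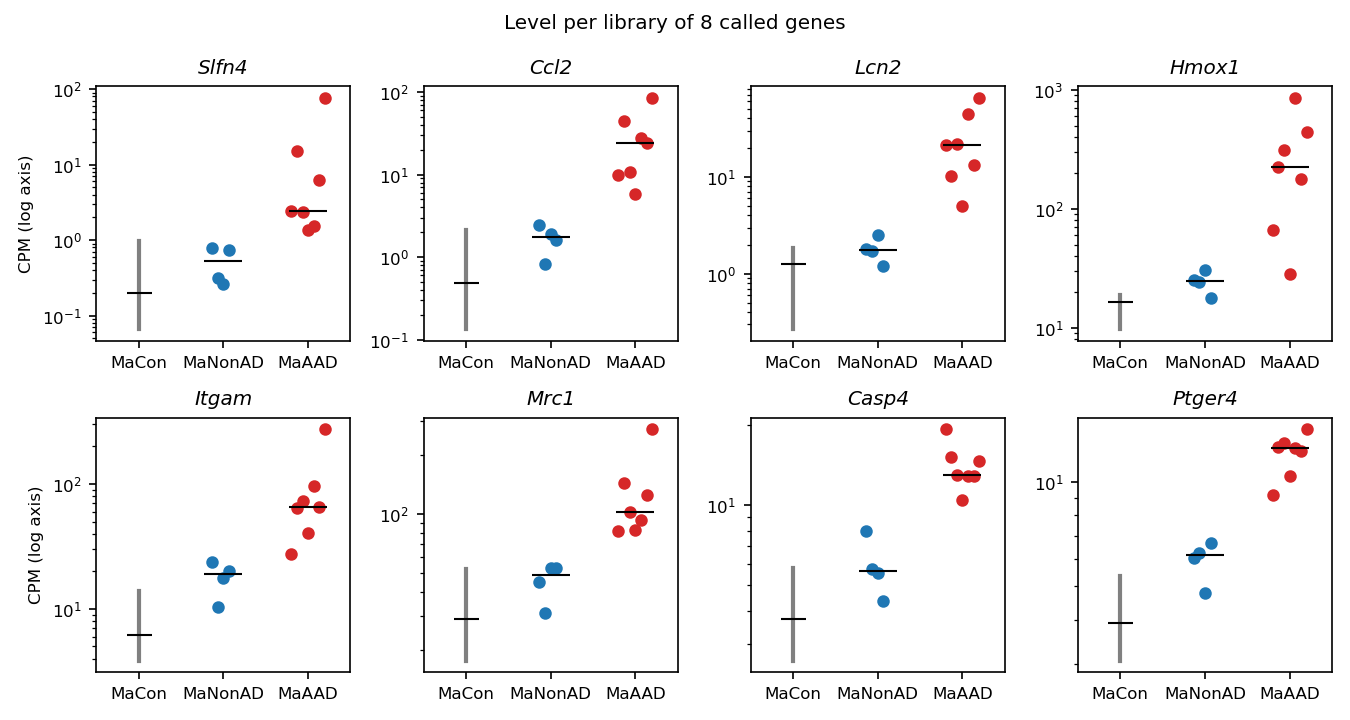
CPM on a log axis of 8 called genes, with grey bars for the range of the 10 MaCon libraries, a point for each MaNonAD and MaAAD library, and short lines for medians. Slfn4 spans 1.35 to 77.1 CPM within MaAAD, while Ptger4 spans 9.16 to 14.2 CPM.

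The other genes of these pathways were described from 46 lists, which held 802 tested genes and 18 of the 51 called genes. Summed levels cover all genes of a list in the table, also those too low to test. The shares over all genes, against which the counts in a list are read, were 0.353% called higher by edgeR, 3.46% called higher by DESeq2, and 12.3% higher and 6.36% lower at p under 0.05. Of 20 macrophage and monocyte genes, 3 were called higher (Mrc1, Msr1 and Itgam), 18 had a positive log2 fold change, and the median was 1.52. Their summed level was 874 to 1220 CPM in MaNonAD and 1330 to 5090 CPM in MaAAD, without overlap. Lyz2, lysozyme, was at 366, 179, 282 and 200 CPM in MaNonAD and at 299, 836 and 1981 CPM in MaAAD (log2 fold change 1.74, edgeR adjusted p = 0.0507). The complement component C1qb had a log2 fold change of 1.19 (adjusted p = 0.0743), which did not pass the test. DESeq2 called 12 of the 20 genes higher, and without MaAAD7 edgeR called 0, with a median of 1.16.

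Neutrophil genes had the highest list median, 2.96 over 13 genes, with 1 called (Lcn2) and 12 positive. The 1 negative gene was Ngp, with a log2 fold change of −2.79, lower without overlap and at an unadjusted edgeR p under 0.05. Their summed level was 17.1 to 24.3 CPM in MaNonAD and 24.5 to 114 CPM in 6 MaAAD libraries, but 553 CPM in MaAAD7. S100a8, a calcium-binding protein abundant in neutrophils, was at 0.68, 1.98 and 56.8 CPM in MaAAD (lowest, median, highest) and at 0.51 to 1.07 CPM in MaNonAD, with overlap and an edgeR adjusted p of 0.159. Mmp9, the gelatinase of neutrophils and macrophages, was at 164 CPM in MaAAD7 and at 3.32 to 19.7 CPM in the other 6, beside 3.47 to 13.2 CPM in MaNonAD. Without MaAAD7 the list median was 1.94.

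Among CC chemokines, 1 of 18 was called (Ccl2), 16 were positive and the median was 1.86. Ccl7, another monocyte attractant, was at 2.64, 0.51, 2.43 and 1.94 CPM in MaNonAD and at 6.15, 14.6 and 97.7 CPM in MaAAD (log2 fold change 4.01, adjusted p = 0.0507). The groups did not overlap, and the gene missed the threshold only narrowly. Of CXC and other chemokines, 1 of 13 was called (Cxcl3) and the median was 1.83, or 1.07 without MaAAD7. Of the 14 tested chemokine receptors, 0 were called by edgeR, 6 were higher at p under 0.05 (12.3% over all genes), and DESeq2 called 4 (3.46% over all genes). Ccr2, the receptor of Ccl2, was at 26.0, 1.21, 15.6 and 3.61 CPM in MaNonAD and at 29.8, 51.8 and 224 CPM in MaAAD, a log2 fold change of 2.62 (adjusted p = 0.0507).

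In the interleukin-1 family and inflammasome list all 18 tested genes had a positive log2 fold change, with a median of 1.17, and 9 were higher without overlap, against 2.97% of all tested genes. Of these genes, 1 was called (Casp4). Il33, an alarmin of stromal cells, was at 39.8, 31.2, 34.2 and 38.3 CPM in MaNonAD and at 54.0, 87.9 and 255 CPM in MaAAD, a log2 fold change of 1.69 (adjusted p = 0.0502). Il1r1, the receptor of interleukin-1, was at 36.5 to 51.4 CPM in MaNonAD and 59.4 to 110 CPM in MaAAD, a log2 fold change of 0.83. Of 24 Toll-like and innate receptors, 2 were called (Tlr13 and Clec4n), against 0.353% of all tested genes, and the median was 1.51. Of 14 genes of the interleukin-6 family, 1 was called (Il6), and the median was 0.46. The 25 interferon-stimulated genes had log2 fold changes from 0.0 to 1.51 with a median of 0.34, and 0 were called by edgeR and 2 by DESeq2. Without MaNonAD1 the median was 0.89, and without MaNonAD2 5 of the 25 were negative.

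For cell division, 0 of 38 cell cycle and DNA replication genes were called by edgeR, although all 38 had a positive log2 fold change, 37 had p under 0.05 (12.3% over all genes) and the median was 1.45. DESeq2 called 21 of them (3.46% over all genes) and limma voom 0. The summed level of the list was 410, 288, 401 and 360 CPM in MaNonAD and 426, 712 and 1390 CPM in MaAAD (lowest, median, highest). The groups were side by side, with MaAAD1 just above MaNonAD1. Pcna, the clamp that holds DNA polymerase on its template, was at 47.2 to 50.4 CPM in MaNonAD and 55.9 to 115 CPM in MaAAD, a log2 fold change of 0.51 (adjusted p = 0.166).

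Contractile smooth muscle genes showed small negative values. Of 26 genes, 24 had a negative log2 fold change with a median of −0.51, 16 had p under 0.05, and 0 were called by edgeR, DESeq2 or limma voom. Acta2, smooth muscle actin, was at 9772, 20420, 18590 and 18920 CPM in MaNonAD and at 6432, 11760 and 17020 CPM in MaAAD (log2 fold change −0.52, adjusted p = 0.207). Myh11, smooth muscle myosin, had a log2 fold change of −0.60 (adjusted p = 0.179). Both overlapped between the groups. For Acta2 it was MaNonAD1 that lay within the MaAAD range, and for Myh11 MaAAD3, at 3635 CPM, lay within the MaNonAD range. Without MaAAD1, the library with fat genes, the list median was −0.42. Endothelial genes had a median of 0.01 over 18 genes, with 0 called and 0 at p under 0.05.

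Matrix genes had mostly positive values, and edgeR called 0 of the collagens, elastic fibre genes and matricellular proteins, of which DESeq2 called 1, 0 and 5 higher (3.46% over all genes). Col3a1, type III collagen, was at 6218, 4270, 6105 and 5645 CPM in MaNonAD and at 6763, 9640 and 12180 CPM in MaAAD, without overlap (log2 fold change 0.79, adjusted p = 0.0507). The medians were 0.39 over 19 collagens, 0.16 over 22 elastic fibre and cross-linking genes, 0.46 over 19 matricellular proteins, 0.96 over 15 matrix metalloproteinases and 0.44 over 20 ADAM and ADAMTS proteases. The metalloproteinase median was 0.49 without MaAAD7, 0.43 with DESeq2 and 0.42 in the fit of males, and the matricellular median 0.74 without MaNonAD1 and 0.29 without MaNonAD2. Timp1, an inhibitor of metalloproteinases, was at 101, 37.0, 108 and 43.2 CPM in MaNonAD and at 139, 216 and 943 CPM in MaAAD, without overlap (log2 fold change 2.34, adjusted p = 0.071). The other 4 of the 5 metalloproteinase inhibitors were negative, and the median of that list was −0.04. Without MaAAD7, 4 of the 5 were positive and the median was 0.05. Mmp14, a membrane metalloproteinase, had a log2 fold change of 1.05 (adjusted p = 0.0513).

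The lysyl oxidases, which BAPN inhibits, had 0 calls. Lox was at 596, 179, 486 and 566 CPM in MaNonAD and at 703, 870 and 936 CPM in MaAAD (log2 fold change 0.88, adjusted p = 0.15), and all 7 libraries with a lesion lay above all 4 without. Loxl2, Loxl3 and Loxl4 had log2 fold changes of 0.60, 0.43 and 0.61, and Loxl1 one of −0.05, with adjusted p of 0.113, 0.156, 0.142 and 0.899. Lox was at 151 to 505 CPM in MaCon, and all 7 MaAAD libraries stood above this range.

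**Figure D4:**
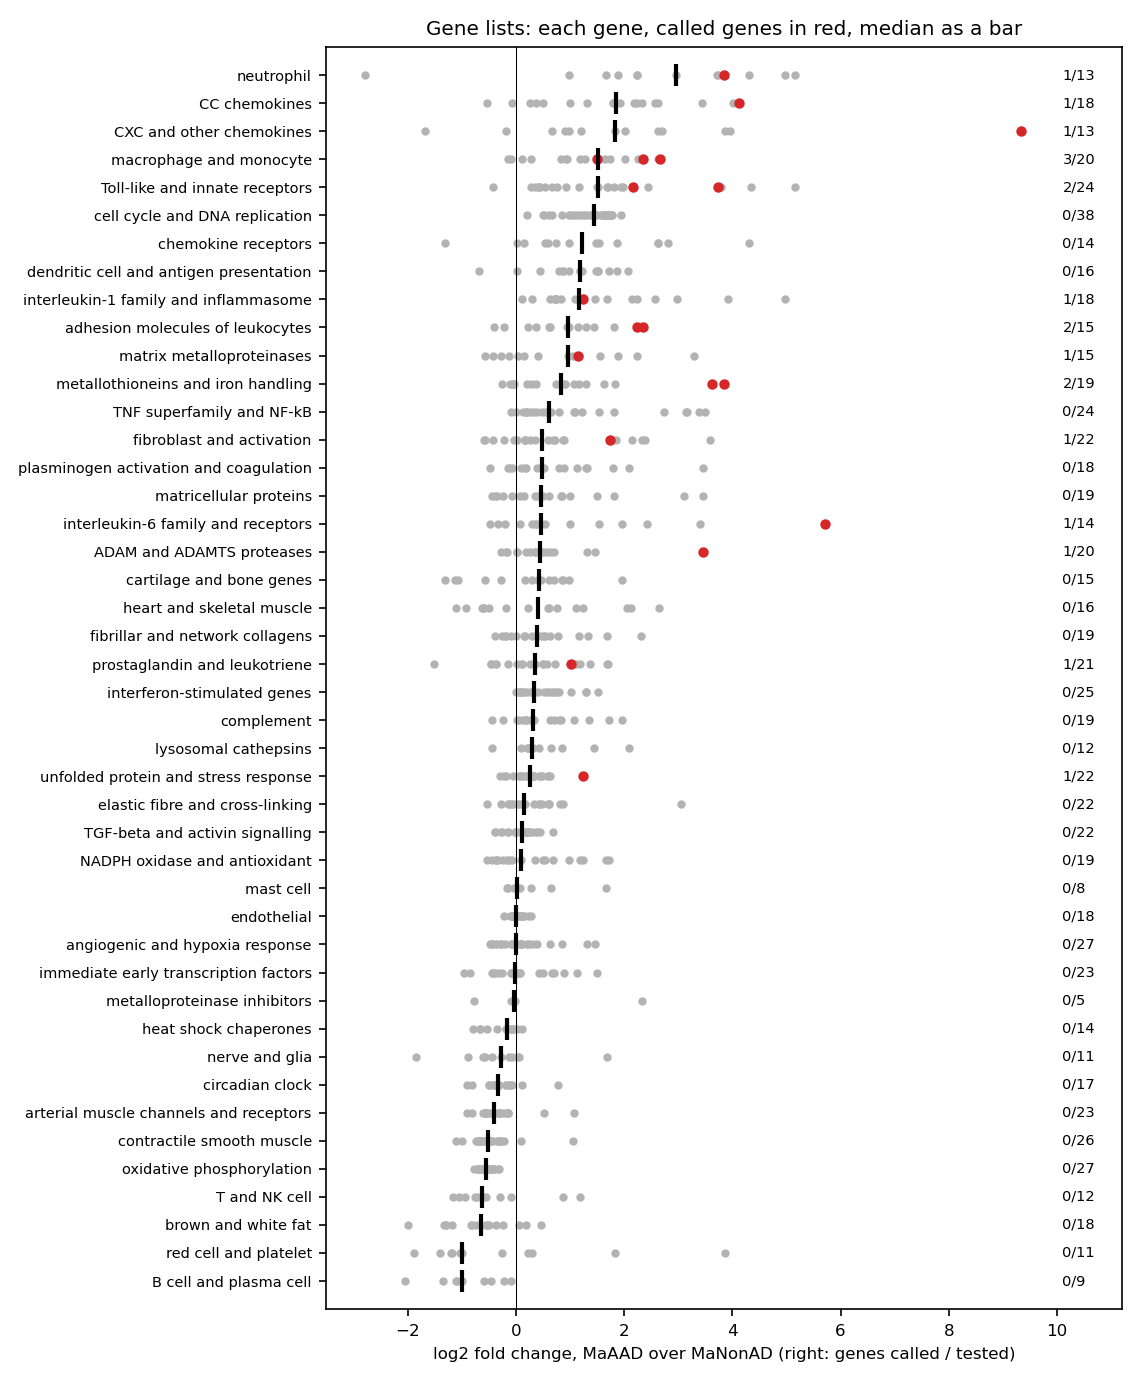
Each point is a tested gene of 1 of 44 lists, named at the left, placed by its log2 fold change between MaAAD and MaNonAD, with called genes in red, the list median as a black bar and the number called over the number tested at the right. Neutrophil genes have the highest median (2.96) and genes of B and plasma cells and of red cells and platelets the lowest (−1.0 each, and −0.67 and −0.24 without MaNonAD4).

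No gene passed both thresholds as lower. With adjusted p alone, 59 genes passed, 56 higher and 3 lower. The 3 were Stx1a, a membrane fusion protein of secretion, Ndrg2 and Hnrnph3, an RNA-binding protein. Stx1a was at 79.0, 97.5, 109 and 92.2 CPM in MaNonAD and at 37.8, 57.9 and 65.3 CPM in MaAAD, without overlap, and fell by 0.80 (SE 0.18) on the log2 scale. Ndrg2 was at 344, 517, 426 and 366 CPM in MaNonAD and at 212, 268 and 338 CPM in MaAAD and fell by 0.60 (SE 0.14). Hnrnph3 fell by 0.39 (SE 0.09), with overlap of the groups.

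Ms4a1, which encodes the B cell antigen CD20, had the lowest value among the 10 genes lower in MaAAD with the smallest p. It was at 1.20, 0.89, 1.32 and 2.67 CPM in MaNonAD and at 0.12, 0.35 and 0.72 CPM in MaAAD, without overlap, a log2 fold change of −2.04 (edgeR adjusted p = 0.0502). In MaCon its level was 0.0 to 0.65 CPM, so MaNonAD lay above the untreated aortas and MaAAD overlapped them. DESeq2, limma voom and the fit of males called it lower. At a mean of 12.4 counts per library its level was low. The other 6 were Egln1, Pfkp, Asb2, Guca1b, Alox15 and Tlcd3b, and DESeq2 called Alox15 and Tlcd3b lower. The groups overlapped for these 6 genes except Guca1b. The 9 tested B cell and plasma cell genes all had negative log2 fold changes with a median of −1.0, or −0.67 without MaNonAD4. The summed level of the list was 10.8 to 27.2 CPM in MaNonAD and 3.35 to 16.9 CPM in MaAAD. In MaCon the sum was 1.32 to 9.29 CPM, below all MaNonAD libraries and overlapping MaAAD.

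Genes of oxidative phosphorylation and of fat had negative values whose size turned on MaAAD1 and MaNonAD2. All 27 genes of oxidative phosphorylation were negative, with a median of −0.56, and 0 were called. Without MaAAD1 the median was −0.95 and 11 were called lower. Over all genes, 216 of the 14413 tested in that fit were called lower. The list's summed level was 5720 to 10600 CPM in MaNonAD and 3160 to 4340 CPM in 6 MaAAD libraries, but 12200 CPM in MaAAD1, where fat genes were also highest. For 18 fat genes the median was −0.65, and −1.3 with 9 called lower in the same fit without MaAAD1. Without MaNonAD2, the highest of MaNonAD for both lists, the medians were −0.32 for oxidative phosphorylation and −0.35 for fat. Fabp4, a fatty acid carrier of fat cells, was at 845, 2255, 1242 and 773 CPM in MaNonAD, at 218 to 713 CPM in 6 MaAAD libraries and at 3096 CPM in MaAAD1. The part of fat tissue left on the vessel in these values was not tested.

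The same step in females shares no library with the male one, and it was used to see whether the 51 genes moved there too. FeAAD against FeNonAD gave 980 genes called higher (6.79%) and 36 lower (0.249%). All 51 genes were higher in FeAAD, with a median log2 fold change of 1.95 against 2.17 in males, and 40 were called (78.4% of the 51). A further 8 had an adjusted p under 0.05 without the fold, and Clca3a2, Brinp1 and Frmd5 had adjusted p of 0.056, 0.449 and 0.0878. Il6, which had no overlap in males, overlapped in females, at 0.35 to 31.1 CPM in FeAAD and up to 8.66 CPM in FeNonAD.

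Conversely, of the 980 genes called higher in FeAAD, 958 were higher in MaAAD, with a median of 1.37 in males and 1.75 in females, 787 were at p under 0.05 in males (12.3% of all tested genes were higher at that p) and 220 did not overlap between the male groups (2.97% of all were higher without overlap). Of the 36 called lower in FeAAD, 32 were lower in MaAAD. Across the 14431 tested genes, which are not independent of each other, the log2 fold changes of the sexes had Pearson's r of 0.826 and Spearman's rho of 0.741.

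**Figure D5:**
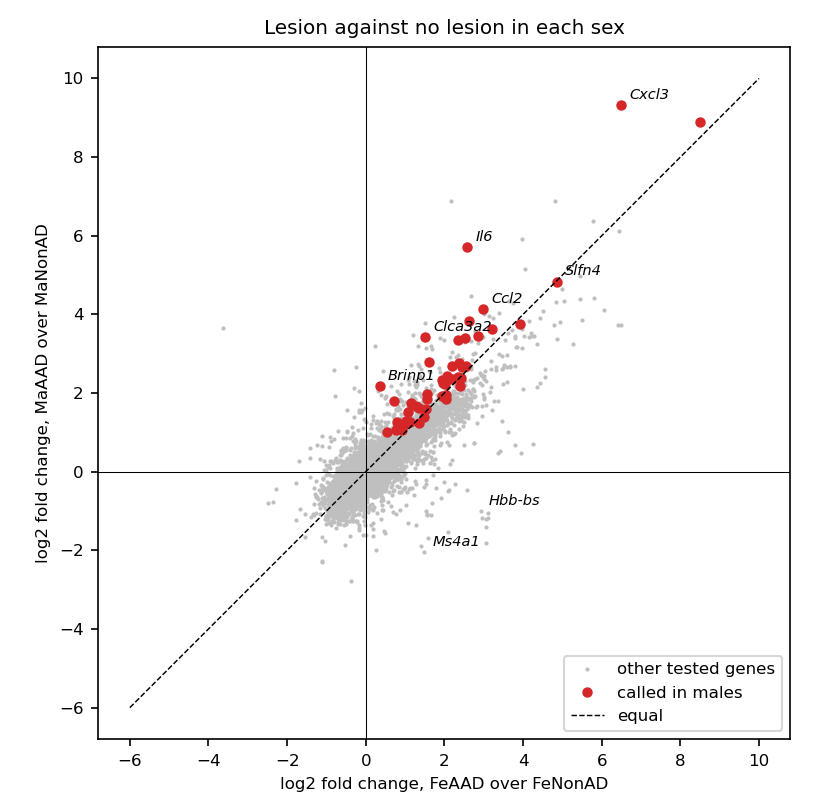
Each point is a tested gene, placed by its log2 fold change between AAD and NonAD in females (horizontal axis) and in males (vertical axis), with the 51 genes called in males in red and a dashed line of equal change. All 51 lie right of 0 and above 0, and 42 lie above the dashed line.

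The difference between the sexes in this step, tested as an interaction in edgeR, was called for 0 genes (0.0%), with 149 at p under 0.05. Of the 51 genes, 42 had the larger value in males, a count that their choice in males favours. Of the 51, 2 had an unadjusted interaction p under 0.05, and the lowest was 0.00132, with an adjusted p of 1.0, for Brinp1. Brinp1, a gene expressed mainly in neurons, was at 1.20, 0.95, 0.79 and 0.80 CPM in MaNonAD and at 1.51, 3.53 and 8.49 CPM in MaAAD, and at 1.11 to 4.46 CPM in FeNonAD and 1.03 to 5.68 CPM in FeAAD. DESeq2 and limma voom each called 1 gene, Ms4a1, whose log2 fold change was −2.04 in males and 1.48 in females, a difference of −3.52 (SE 0.70, edgeR adjusted p = 0.102). Hbb-bs, a hemoglobin chain, had a log2 fold change of −1.0 in males and 2.92 in females (interaction adjusted p = 0.603). The summed level of the red cell and platelet list was 727 to 5220 CPM in MaNonAD, highest in MaNonAD4, and 366 to 2520 CPM in MaAAD, and the part of blood left in the vessel was not tested.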

How the data were processed

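The members and the gene lists were chosen with earlier results of these data known. Libraries were grouped by their labels. The authors deposited expected counts per gene for 48 libraries, made with RSEM 1.3.1 and Bowtie2 on GRCm39 per the processing notes, not scaled to library size. They were rounded to whole counts, since 4.99% of values in 18782 genes were not whole, although the design had assumed counts. A gene whose values were not whole shares reads with others, as stated beside the called ones, and Loxl2, Hbb-bs, Myh6, Lyz2 and Ccr2 also had such values. Per the labels 1 library is 1 sample, and the p-values measure the spread between these samples. Molecular identifiers are not named in the sources used here, and a floor of 3 counts therefore covers counting error alone.

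All comparisons came from a single model in edgeR 4.0.16 under R 4.3.3 (quasi-likelihood test, robust, filterByExpr, TMM, a mean for each of 6 groups, Benjamini-Hochberg adjustment). A call required an adjusted p below 0.05 together with a change of 1 or more on the log2 scale in either direction. Standard errors were derived from the F statistic. Alternatives were DESeq2 1.42.0, its size factors, limma voom 3.58.1, no filter, no robust estimation, adjusted p alone, a replicate block, fits of fewer libraries, and leaving out each of 11 libraries.

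Named genes were the 30 called genes with the largest fold that averaged at least 10 counts, the 10 lower genes with the smallest p, called list members and the 4 highest of each list, the Lox family, and the called genes with the 5 smallest and 5 largest shares in a single library. The other called genes were added to complete the list, and 1 called gene is counted but not reported here. The summed lists, the figure of levels and the grouping by role are descriptions. Cages and extraction batches are not given per mouse in the labels, so they were not tested. Calculations used Python 3.11.15 with numpy 2.4.6 and pandas 2.3.3, and figures matplotlib 3.10.9.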

Additional observations from a re-analysis of the deposited data

Results flagged for a closer look

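Of 120 tests of a highest or lowest library in a group, 13 found a library farther from its neighbour than Dixon's 95% limit allows. The nominal rate of about 1 in 20 holds for independent groups of normally distributed values. The tests here used CPM, shared the same 11 libraries and were mostly on genes chosen as higher in MaAAD. For that reason these 13 flags are not set against the nominal rate. Of these, 10 were in MaAAD7, which held 77.1 CPM of Slfn4, 43.6 CPM of Nxpe5, 83.7 CPM of Csf2rb, 30.6 CPM of Cd300lb, 275 CPM of Itgam, 18.5 CPM of Card9, 199 CPM of Fcgr2b, 56.4 CPM of Tlr13, 11.4 CPM of Kcnk13 and 273 CPM of Mrc1. MaAAD7 also held 537 CPM over the heart and skeletal muscle list, and the part of this tissue in these values was not tested. MaAAD5 stood apart for Clca3a2 at 12.3 CPM and Slc7a11 at 23.1 CPM. MaAAD1 stood apart for Tlcd3b, at 6.33 CPM against 1.61 to 3.29 CPM in the other 6. Csf2rb, Slfn4 and Clca3a2 have reads shared with other genes.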

How the results depend on the processing

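The number of genes called between MaAAD and MaNonAD, 51 with all libraries, was 518 with DESeq2, 168 with its size factors in edgeR, 106 with limma voom, 99 without robust estimation, 494 in the fit of males, and 0 without a filter, in the fit of the 11 libraries and with the replicate block. When 1 library was left out it ran from 0 to 712. All 51 genes stayed higher in all 19 alternatives, and of 969 pairs of gene and alternative, 446 kept their call and 523 lost it. The labels name no pairing of mice by library number. Same-numbered MaNonAD and MaAAD libraries had correlations of −0.191, −0.117, 0.0926 and 0.303. These were not set beside correlations of differently numbered libraries, so they cannot show whether the numbers carry a shared batch. The replicate block gave 0 calls, 2049 genes at edgeR p under 0.05 and a lower median of 1.77 for the 51. The interaction was called for 1 gene by DESeq2 and by limma voom, and for 0 to 1 when 1 library was left out. FeAAD against FeNonAD had 1016 genes called, or 2626 with adjusted p alone. Genes higher without overlap numbered 429, and 437 to 923 when 1 library was left out, and genes lower without overlap 154, and 159 to 692. The libraries whose absence moved these counts by over 1.5 times were MaNonAD1 (923 higher, 434 lower), MaAAD1 (772 higher, 692 lower), MaNonAD3 (273 lower), MaNonAD4 (236 lower) and MaAAD3 (255 lower). The log2 fold change of Loxl1, −0.05, ran from −0.09 to 0.05 when 1 library was left out and changed sign only without MaNonAD replicate 3. Of the medians of lists, 543 moved by less than the spread and 9 by more, among them those of chemokine receptors (0.85 without MaAAD3), leukocyte adhesion molecules (0.61 without MaAAD7), heart and skeletal muscle (−0.57 without MaAAD7) and red cells and platelets (−0.24 without MaNonAD4). Adjusted p of the 51 under edgeR lay at 0.0497 with all libraries, and the lowest adjusted p in the fit of the 11 libraries alone was 0.0907.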
